A study of Homo sapiens with 16 samples.

Results

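Interferon-stimulated genes were followed as a set of 40 genes in 2 human thyroid carcinoma cell lines, TPC1 and K1, in which MDM2 and PPM1D, both repressors of p53, were inhibited singly or together. The genes were taken by their symbols and not by a measured value, but the set was chosen with earlier results of these data known. All 40 were present among the 25369 genes of the count table. Cells were kept for 24 h in vehicle (DMSO at 0.2%), in nutlin at 10 µM, in GSK2830371 at 25 µM, or in the 2 drugs at once (the combination), and polyadenylated RNA was sequenced from 2 libraries per group, 16 libraries in all. Nutlin occupies the p53 pocket of MDM2, so p53 accumulates, and GSK2830371 inhibits the phosphatase PPM1D, which dephosphorylates p53 and kinases that act on it. Both lines are labelled papillary thyroid carcinoma, K1 derives from the line GLAG-66, and neither line was treated with an interferon in any group. TPC1 was kept in RPMI and K1 in DMEM, so for a difference in level between the lines the line, its medium and its series of libraries cannot be told apart. The study describes its replicates in general as prepared independently of each other, and the labels of these libraries give a replicate number only. TPC1 columns carry the numbers 1 and 3, where the sample labels have 1 and 2, and the libraries are called by the column number here.

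Interferons are secreted by cells that sense viral nucleic acid, and they act on neighbouring cells through surface receptors and the kinases JAK1 and TYK2. The receptors switch on transcription factors, of which STAT2 joins IRF9 in a complex called ISGF3 that binds the interferon-stimulated response element (ISRE) in gene promoters. The genes under that element encode antiviral effectors (the IFIT, IFITM, OAS and MX families), a ubiquitin-like modifier with its ligase and protease, sensors of viral RNA, and the transcription factors of the pathway itself. Some of these genes, among them *TLR3*, *IRF9*, *ISG15* and *TRIM22*, have also been described as targets of p53, which need not act through interferon. In cultured carcinoma cells without interferon the set is usually expressed at a low basal level that differs between lines.

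Promoter sequences were searched for the element that ISGF3 binds. A promoter window from 250 bases before to 50 bases after the RefSeq start site (build GRCh38.p14) was at hand for 31 of the 40 genes. The core of the ISRE, GAAANNGAAA on either strand, was found in 19 of these 31 windows (61.3%), against 3.17% of 16598 windows of genes in the table. TTCNNNGAA, the core of the gamma-activated sequence (GAS), was found in 8 windows (25.8%, against 7.04% of all windows), and the p53 consensus decamer in 3 (9.68%, against 6.07%), those of *ISG15*, *DDX58* and *TRIM21*. The motifs may overlap each other, and a match is a description of letters, not a proven binding site. The windows below belong to genes that rose with nutlin (*ISG15*, *TLR3*, *HERC5*, *IFIH1*), that fell with nutlin or the combination (*OAS3*, *IFIT1*, *IFI44*, *IFI44L*), or that passed the test in no comparison within a line (*MX1*, *IFIT3*), and the capitals mark each ISRE core. *OAS3*, *IFI44L* and *IFIH1* hold cores in 2 separate stretches, both of which are given, and those of *IFI44L* are the same letters at 2 places. Each is read 5′ to 3′ on the strand of its gene.
ISG15 (chr1:1013369-1013414, plus strand): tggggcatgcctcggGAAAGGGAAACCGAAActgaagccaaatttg
TLR3 (chr4:186069137-186069176, plus strand): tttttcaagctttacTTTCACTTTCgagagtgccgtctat
HERC5 (chr4:88456979-88457069, plus strand): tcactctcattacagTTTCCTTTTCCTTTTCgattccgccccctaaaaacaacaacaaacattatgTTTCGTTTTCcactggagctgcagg
IFIH1 (chr2:162318813-162318858, minus strand): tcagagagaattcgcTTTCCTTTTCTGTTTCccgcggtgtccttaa
IFIH1 (chr2:162318681-162318720, minus strand): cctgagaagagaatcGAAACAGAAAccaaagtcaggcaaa
OAS3 (chr12:112938316-112938355, plus strand): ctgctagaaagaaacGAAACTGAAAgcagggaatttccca
OAS3 (chr12:112938447-112938486, plus strand): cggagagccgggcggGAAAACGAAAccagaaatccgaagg
IFIT1 (chr10:89392492-89392544, plus strand): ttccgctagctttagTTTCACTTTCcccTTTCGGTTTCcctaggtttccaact
IFI44 (chr1:78649756-78649795, plus strand): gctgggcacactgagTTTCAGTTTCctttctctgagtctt
IFI44L (chr1:78620269-78620308, plus strand): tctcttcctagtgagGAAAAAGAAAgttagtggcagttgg
IFI44L (chr1:78620360-78620399, plus strand): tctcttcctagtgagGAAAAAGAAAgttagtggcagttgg
MX1 (chr21:41420554-41420593, plus strand): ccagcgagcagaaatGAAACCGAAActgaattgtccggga
IFIT3 (chr10:89327826-89327899, plus strand): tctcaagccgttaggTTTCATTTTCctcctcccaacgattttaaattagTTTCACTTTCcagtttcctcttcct
The ISRE core stood in front of genes that moved in either direction and of genes that did not pass the test. In TPC1, 18 of the 19 genes with a core were tested, and 4 of them rose (22.2%) and 2 fell (11.1%) with nutlin. Of 10 tested genes whose window held no core 3 rose (30%) and 1 fell (10%), and of all 15273 genes tested 17.5% rose and 18% fell. The 2 groups of genes are small, and they were not tested against each other. *STAT2*, *SP110*, *PARP9*, *DDX58* and *CMPK2* were among those with no core in the window.

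A gene was called raised or lowered where it changed more than 1.5-fold and the quasi-likelihood test of edgeR, fitted to the 8 libraries of a line with TMM scaling, gave a Benjamini-Hochberg adjusted p below 0.05 over all genes tested. Levels are in CPM, a count scaled by the total of its library, given for the 2 libraries of a group or as the mean ± SD (n = 2), and changes are log2 fold changes ± SE from the fit. Totals ran from 30789887 to 76648552 counts in TPC1 and from 28888686 to 37161241 in K1, so that 3 counts stood for 0.0391 to 0.104 CPM. *CDKN1A*, the p53 target that encodes the cell cycle inhibitor p21, had log2 fold changes of 5.61 (TPC1) and 3.16 (K1) under nutlin, and was raised in both. Under GSK2830371 alone it had 0.28 in TPC1, where it was not called, and 1.01 in K1, where it was raised. Of 4 genes read as a check of the drugs, GSK2830371 alone raised 2 in TPC1, *GDF15* (1.10 ± 0.10) and *ATF3* (0.93 ± 0.17). In K1 *CDKN1A* was the only 1 of these 4 that it raised. Of the markers of thyroid origin *PAX8* and *FOXE1* were expressed in every library (at least 22.01 CPM), and *TSHR* was at 0 counts. Of 8 blood and endothelial markers *CD14* reached 4.56 CPM in K1, and the others stayed at or below 0.768 CPM. Same-numbered TPC1 libraries shifted together, so values with the replicate number as a block stand beside a TPC1 result where they change a call.

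The first question was which of these genes the lines express without any drug. Under DMSO 29 of the 40 genes reached a mean of 1 CPM in TPC1 and 34 in K1. Divided by transcript length, *IFITM3*, a membrane protein that blocks entry of enveloped viruses, stood first in both lines, at 415 ± 63.3 CPM per kb in TPC1 and 112 ± 1.65 in K1. In TPC1 *IFITM2* (39.8 ± 0.151 CPM per kb) and *ISG15* (16.8 ± 2.02) came next, and the libraries of these 3 genes did not overlap in level. In K1 *ISG15* (19.1 ± 2.02 CPM per kb) came next and *OAS3* (13.4 ± 0.186) after it, whose libraries overlapped with those of *IFI35*. *IFITM2* and *IFITM3* are close copies, so their share of the reads depends on how ambiguous reads were placed.

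In CPM, *IFITM3* measured 226 and 281 in TPC1 DMSO, 263 and 295 with nutlin, 217 and 253 with GSK2830371 and 199.5 and 251 with the combination. In K1 the same 4 groups had 67.8 and 69.2, 78.3 and 80.1, 72.5 and 71.4 and 74.9 and 74.1 CPM. The gene with the highest level per kb was thus called in no comparison within a line, and its TPC1 groups overlapped. *IFITM2* had 39.98 and 40.2 CPM in TPC1 DMSO and 29.6 and 25.3 with the combination (log2 fold change −0.50 ± 0.09, edgeR adjusted p = 0.0008), which did not reach the fold threshold.

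At the other end, *XAF1*, a proapoptotic interferon target, had 1 count in all 16 libraries together, and *RSAD2*, which encodes the radical enzyme viperin, had at most 7 counts in any library. Neither was tested in either line. *MX2* and *BST2* were too low to test in TPC1, and *IFITM1* was too low in K1. For *XAF1* and *RSAD2* no change was detectable at this depth. *RSAD2* lies head to head with *CMPK2* on chromosome 2 and overlaps its start, and *IFITM1* sits between the expressed *IFITM2* and *IFITM3* on chromosome 11. Reads were counted by strand, which keeps overlapping genes of opposite strands apart.

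The interferon genes looked up here were near or below the reach of these libraries, and other interferon genes are not reported here. *IFNA1*, *IFNB1*, *IFNK*, *IFNG* and *IFNL1* had 0 counts in all 16 libraries, which allows at most 0.0391 to 0.104 CPM in a single library, and so did the interferon-induced chemokines *CXCL10* and *CXCL11*. *IFNE*, an epithelial type I interferon, was the one detected of the interferon genes looked up. It had 0.388 ± 0.217 CPM in TPC1 DMSO and 1.14 ± 0.318 CPM in K1 DMSO, and it was called under no drug in either line. These absences concern RNA of the cells alone, and interferon protein was not measured here.

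K1 held more RNA of many set members than TPC1 before any drug. Of 38 genes tested between the DMSO groups, 14 were higher in K1 (36.8%, against 25% of all 16738 genes tested) and 5 were lower (13.2%, against 21.2%), and the median log2 difference was 0.27, against 0.02 over all genes. *MX2* and *BST2* passed the filter on low counts through K1 alone, where they are higher, and so had to differ. Of the 35 genes tested in both lines 12 were higher (34.3%, against 22.1% of 14509) and 5 lower (14.3%, against 21.5%). *MX1*, a dynamin-like GTPase that blocks influenza and other viruses, had 0.705 and 0.676 CPM in TPC1 and 24.1 and 25.7 in K1 (5.16 ± 0.13, edgeR adjusted p = 5.8e-15). Its neighbour *MX2* had 0 counts in both TPC1 DMSO libraries and 2.08 and 2.50 CPM in K1, at least 83.4-fold higher if TPC1 is set at 3 counts over its group. *TRIM22*, a RING-type ubiquitin ligase that restricts retroviruses, had 0.352 and 0.110 CPM in TPC1 and 36.8 and 34.6 in K1 (7.49 ± 0.22, edgeR adjusted p = 3.0e-14). The difference of *TRIM22* was 8.27 without TPC1 DMSO library 1 and 6.67 without TPC1 DMSO library 3.

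The other genes higher in K1 cover several roles. *DHX58*, a helicase that tunes the RNA sensors, differed by 3.48 ± 0.19, and *OASL*, an enzymatically inactive relative of the oligoadenylate synthetases, by 3.01 ± 0.19. *OAS2*, *BST2*, *CMPK2*, *SAMD9*, *OAS1*, *IFI27*, *IFI44*, *IFIH1* and *IFI6* followed with log2 differences from 0.64 to 2.49. *BST2*, at 2 and 11 counts in TPC1, went from 2.32 to 3.41 without TPC1 DMSO library 3. The 5 genes lower in K1 were *IFITM2* (−2.13 ± 0.11), *IFITM3* (−1.90 ± 0.13), *IFIT2* (−1.65 ± 0.15), *IRF9* (−0.78 ± 0.10) and *ISG20* (−0.73 ± 0.23). The calls of 3 genes were lost under an alternative: *IFI27*, at under 1 CPM in both lines, had an adjusted p of 0.0563 in DESeq2, 0.132 without TPC1 DMSO library 3 and 0.134 without K1 DMSO library 1, *ISG20* had 0.106 without TPC1 DMSO library 3 and 0.105 without K1 DMSO library 2, and *IFI6* fell under the fold threshold without K1 DMSO library 1 (0.56).

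**Figure D1:**
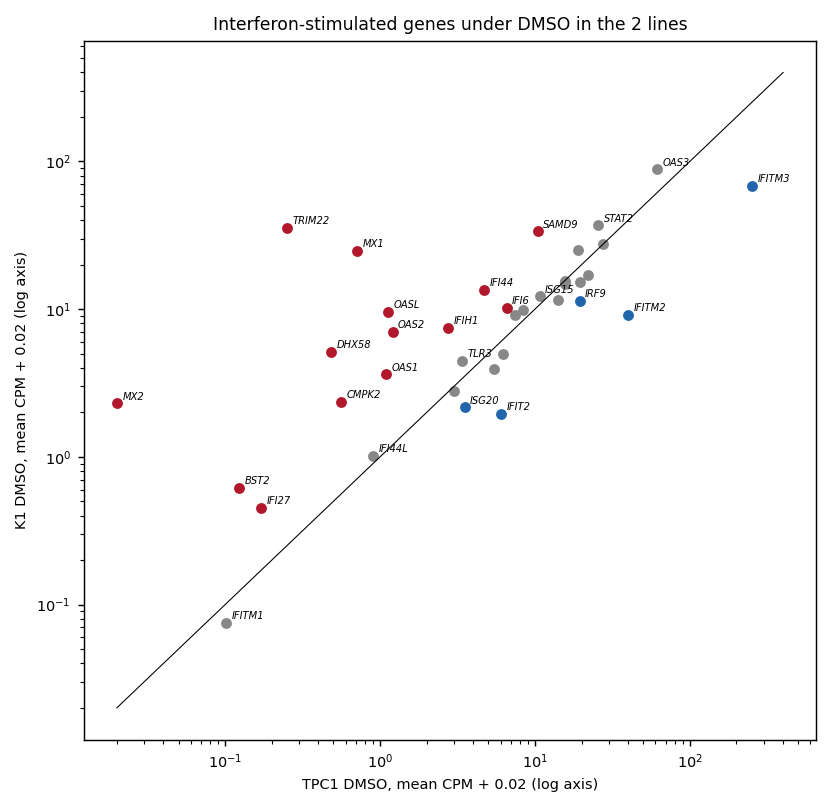
Mean CPM of 2 libraries under DMSO in TPC1 (x axis) and K1 (y axis), both on log axes after adding 0.02, for the 38 genes tested between the lines, with red for genes called higher in K1, blue for lower and grey for not called, and a line of equal level. *MX1*, *MX2* and *TRIM22* stand farthest above the line, and *IFITM2*, *IFITM3* and *IFIT2* lie below it.

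Nutlin alone moved single genes of the set in TPC1 in both directions. Of 36 genes tested, 10 were raised (27.8%, against 17.5% of all 15273 genes tested) and 3 were lowered (8.33%, against 18%), and 23 were not called. The median log2 fold change of the 36 was 0.18, against −0.00 over all genes tested, so the set as a whole hardly shifted while its members ran from −2.003 to 5.91.

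The largest rise was that of *TRIM22* (chr11:5710840-5758319, GRCh37). It went from 0.352 and 0.110 CPM under DMSO, which are 13 and 8 counts, to 12.7 and 10.7 under nutlin. The change was 60.1-fold (5.91 ± 0.31, edgeR adjusted p = 4.5e-07), and the groups lie far apart. Since so few counts stand for DMSO, the log2 fold change was 6.72 without TPC1 DMSO library 1 and 5.09 without TPC1 DMSO library 3. *TRIM22* overlaps the annotated span of *TRIM5*, a relative on the other strand, from which the stranded counting keeps it apart.

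The sensors of double-stranded RNA rose with it. *TLR3* (chr4:186990065-187009227), the endosomal receptor of that RNA, went from 3.66 and 3.09 to 11.7 and 12.8 CPM (1.91 ± 0.15, edgeR adjusted p = 7.1e-06). *DHX58* rose by 1.23 ± 0.28, from 0.465 ± 0.0713 CPM to 1.06 ± 0.153 CPM. *IFIH1*, which encodes the cytosolic sensor MDA5, rose by 0.70 ± 0.19 but lost its call without TPC1 DMSO library 1 (adjusted p of 0.0502) or without TPC1 nutlin library 3 (0.104). *DDX58*, which encodes the sensor RIG-I, was not called (0.15 ± 0.14), so that 3 of the 4 sensors were raised.

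Of the 4 transcription factors in the set, 2 were called raised. *STAT2* (chr12:56735381-56753987) went from 26.5 and 24.9 to 83.3 and 76.02 CPM (1.67 ± 0.11, edgeR adjusted p = 2.4e-06). *IRF9* (chr14:24630443-24637252) went from 18.4 and 20.4 to 38.8 and 39.1 CPM (1.04 ± 0.09, edgeR adjusted p = 9.1e-06), and in both genes the groups did not overlap. *IRF1* (0.54 ± 0.10) and *IRF7* (0.31 ± 0.13), the other transcription factors, were not called. *IRF1* passed the adjusted p (edgeR adjusted p = 0.0017) but not the fold threshold.

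In the *ISG15* pathway the modifier and one ligase rose. *ISG15* (chr1:936518-949920), a ubiquitin-like protein joined to other proteins, went from 9.78 and 11.6 to 21.8 and 23.9 CPM (1.12 ± 0.11, edgeR adjusted p = 2.5e-05). *HERC5*, the main ligase that attaches it, rose by 0.68 ± 0.08. *HERC6* (0.19 ± 0.13), its neighbour on chromosome 4, was not called, nor was *USP18* (−0.59 ± 0.24), the protease that removes the modifier. With the replicate number as a block *USP18* was called lowered (−0.61, edgeR adjusted p = 0.0099). *SP110*, a nuclear body protein, rose by 0.72 ± 0.08.

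The OAS family split. *OAS3* (chr12:113375856-113414265), which makes the oligoadenylates that activate RNase L, fell from 65.7 and 56.97 to 31.5 and 30.9 CPM (−0.94 ± 0.12, edgeR adjusted p = 0.00016). *OASL* went from 0.813 and 1.41 to 2.14 and 2.58 CPM, a rise of 1.08 ± 0.25 that lost its call without TPC1 nutlin library 3 (adjusted p of 0.0529). *OAS1* (−0.31 ± 0.48) and *OAS2* (0.27 ± 0.25) were not called, although *OAS1*, *OAS3* and *OAS2* lie side by side on chromosome 12, with 4831 and 1934 bases between them.

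The other genes that fell were low to begin with. *IFI44L*, a cytosolic antiviral protein, went from 0.887 ± 0.240 CPM under DMSO to 0.213 ± 0.0196 CPM under nutlin (−2.003 ± 0.38, edgeR adjusted p = 0.0016). *CMPK2*, a mitochondrial nucleotide kinase, had 18 and 43 counts under DMSO and 5 and 9 under nutlin (−1.85 ± 0.68, edgeR adjusted p = 0.043). *CMPK2* lost its call whenever any DMSO, nutlin or GSK2830371 library of TPC1 was left out, with adjusted p from 0.0543 (GSK2830371 library 1) to 0.207 (nutlin library 3).

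Several textbook effectors of the interferon response were not among the genes called. *MX1* (0.21 ± 0.27), *IFIT2* (0.34 ± 0.12), *IFIT3* (0.14 ± 0.11), *IFI6* (0.12 ± 0.13) and *IFITM3* (0.17 ± 0.15) had these log2 fold changes with nutlin in TPC1 and were not called. Each gene of the IFIT, IFITM and MX families that was tested in TPC1 stayed below the threshold, between −0.32 (*IFIT1*) and 0.34 (*IFIT2*). *IFIT5*, *TRIM21*, *IFI27*, *IFI35*, *IFI44*, *ISG20*, *SAMD9*, *PARP9* and *IFITM1* completed the genes not called. *IFIT2* (edgeR adjusted p = 0.0307) and *TRIM21* (0.46, edgeR adjusted p = 0.00635) passed the adjusted p but not the fold threshold.

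**Figure D2:**
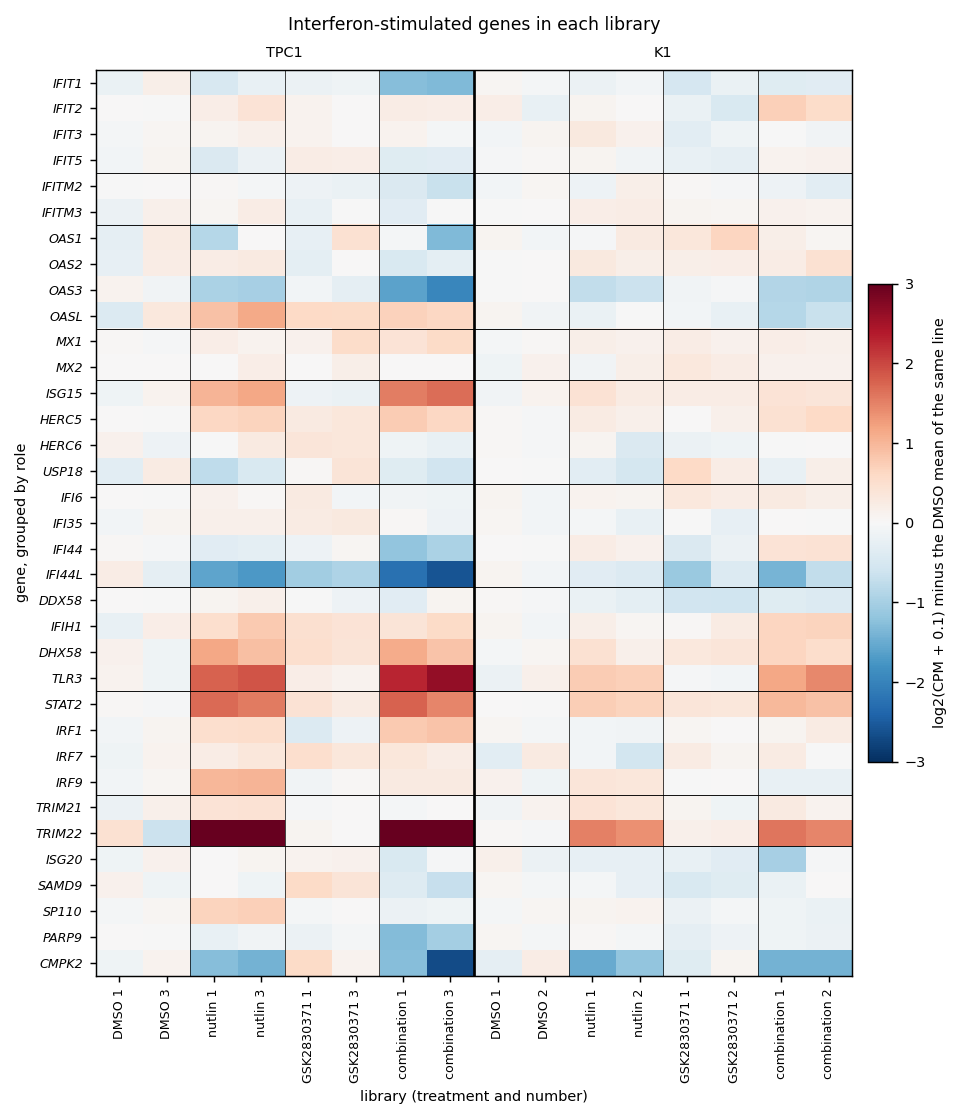
Log2(CPM + 0.1) minus the DMSO mean of the same line (colour, limited to 3 in either direction) for the 35 genes that reached 1 CPM in a library (rows, grouped by role) in each of the 16 libraries (columns, by line and treatment). *TRIM22*, *TLR3* and *STAT2* are red and *OAS3*, *IFI44L* and *CMPK2* are blue in the nutlin and combination columns of TPC1, while most other rows are paler.

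Nutlin moved fewer of these genes in K1. Of 37 tested, 3 were raised (8.11%, against 3.84% of all 15900 genes tested) and 2 were lowered (5.41%, against 5.43%), and the median log2 fold change was 0.05, against −0.00 over all genes. *TRIM22* rose from 36.8 and 34.6 to 101 and 91.7 CPM (1.45 ± 0.07, edgeR adjusted p = 3.8e-09). *STAT2* rose from 37.3 and 36.5 to 61.7 and 58.8 CPM (0.72 ± 0.06, edgeR adjusted p = 1.2e-06). *TLR3* rose from 3.90 and 4.98 to 7.62 and 7.34 CPM (0.76 ± 0.14, edgeR adjusted p = 0.00099). These 3 were called raised in TPC1 too, and in each of them the K1 groups did not overlap.

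*OAS3* and *CMPK2* were the genes that fell in both lines. In K1 *OAS3* went from 87.8 and 89.5 to 52.7 and 56.3 CPM (−0.69 ± 0.06, edgeR adjusted p = 1.2e-06). *CMPK2* went from 1.93 and 2.74 to 0.762 and 0.975 CPM (−1.41 ± 0.26, edgeR adjusted p = 0.0011), a change that no left-out library removed in K1. *ISG15* (0.36 ± 0.10, edgeR adjusted p = 0.011) and *IRF9* (0.36 ± 0.10, edgeR adjusted p = 0.011) passed the adjusted p in K1 but not the fold threshold. *OASL* had 10.2 and 8.96 CPM under DMSO and 8.38 and 9.50 under nutlin, and these groups overlapped (−0.09 ± 0.12).

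The nutlin response itself differed between the lines for 11 of 38 genes in the fit of all 16 libraries. The change was lower in K1 for 10 (26.3%, against 10.5% of all 16738 genes) and higher for 1 (2.63%, against 8.73%). *TRIM22* had the widest difference (−4.49 ± 0.29, edgeR adjusted p = 1.0e-08), with a level under DMSO that already differed between the lines, and the difference was −5.27 without TPC1 DMSO library 1 and −3.68 without TPC1 DMSO library 3. *TLR3* (−1.18 ± 0.22), *OASL* (−1.18 ± 0.26) and *STAT2* (−0.99 ± 0.13) followed, and then *DHX58*, *ISG15*, *IRF9*, *IRF1*, *SP110* and *IFIH1*, from −0.93 to −0.60. *IFI44L* was the gene with the higher change in K1 (1.55 ± 0.51, edgeR adjusted p = 0.028), at or below 1.06 CPM in every library. Without TPC1 DMSO library 1 the number of genes called was 7.

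Some of these differences rest on single libraries. *IFIH1* lost its call without any of the 8 K1 libraries or without TPC1 DMSO library 1 (adjusted p of 0.153), nutlin library 3 (0.255) or either GSK2830371 library, and also under other scalings, the low-count filter of edgeR or DESeq2 (adjusted p from 0.0478, with a change under the fold threshold, to 0.0607). *IFI44L* lost it in DESeq2 (0.0671) and without any K1 DMSO or nutlin library, TPC1 DMSO library 1 or either TPC1 nutlin library, with adjusted p from 0.051 to 0.13. *DHX58* lost it without TPC1 DMSO library 3 (0.119), TPC1 nutlin library 1 (0.0574) or K1 nutlin library 2 (0.0515). *IRF1* (−0.56) and *SP110* (−0.57) fell under the fold threshold without TPC1 DMSO library 1, and so did *IRF9* (−0.58) without K1 DMSO library 1. With the block *IRF7* was called as well (−0.65, edgeR adjusted p = 0.044).

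Genes of the pathway described as p53 targets, 4 in the set and 4 outside it, were a list written with earlier results of these data known. In TPC1 nutlin raised 7 of these 8: *TRIM22*, *TLR3*, *ISG15* and *IRF9* of the set, and *IFI16* (1.18 ± 0.10), *IRF5* (0.69 ± 0.14) and *PML* (0.59 ± 0.07) outside it (87.5%, against 17.5% of all genes tested), and their median was 1.08. *EIF2AK2*, the kinase PKR, was not called (−0.18 ± 0.15). The study cites earlier work that reported its rise with p53. In its own analysis of many datasets it found no binding of p53 at this gene and no transactivation. In K1 2 of the 8 were raised (25%, against 3.84%), *TRIM22* and *TLR3*, and the median was 0.30.

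**Figure D3:**
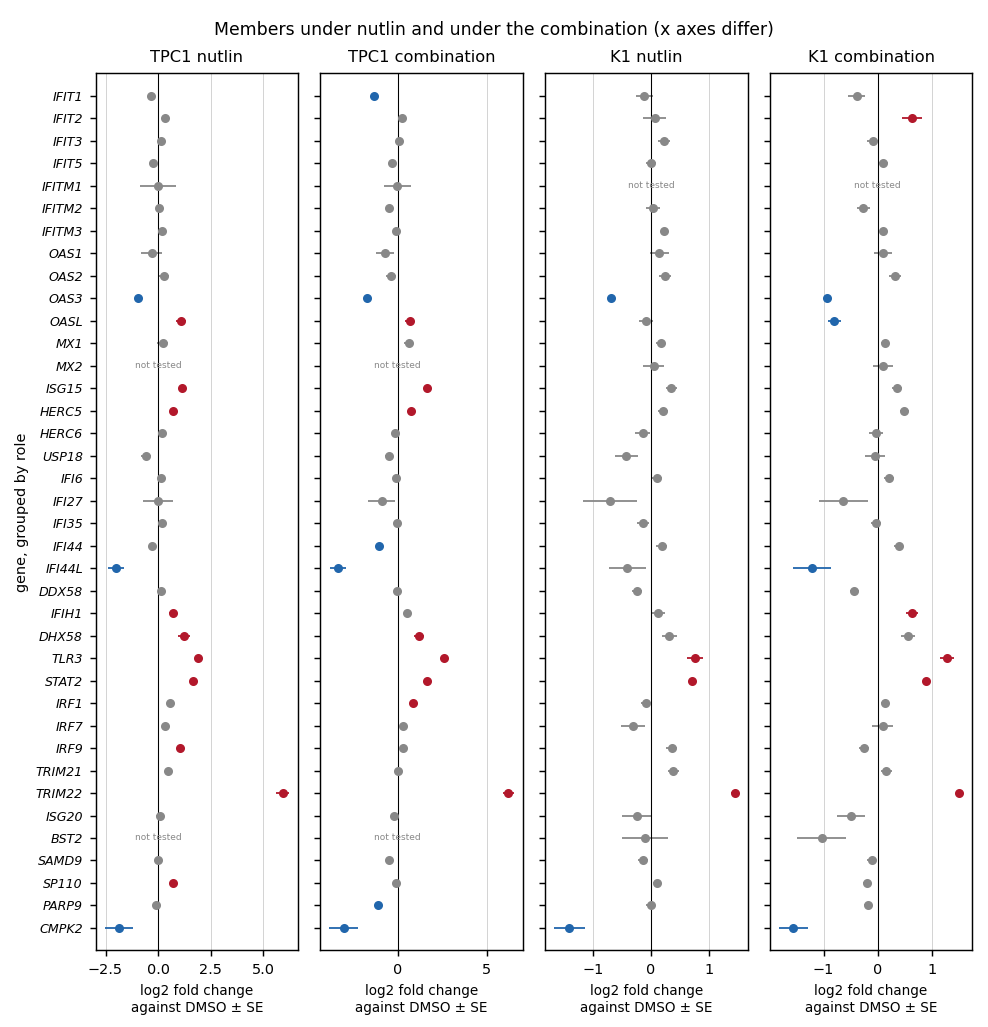
Log2 fold change ± SE against DMSO (x axes, which differ between panels) for each gene tested (y axis, grouped by role) under nutlin and the combination in TPC1 and K1, with red for raised, blue for lowered and grey for not called. *TRIM22*, *TLR3* and *STAT2* are red and *OAS3* and *CMPK2* blue in all 4 panels, and *TRIM22* reaches 5.91 and 6.23 in TPC1.

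The combination was set against DMSO to see the full effect of inhibiting both repressors. In TPC1 8 of 36 genes were raised (22.2%, against 22.5% of all genes tested) and 6 were lowered (16.7%, against 21.7%), with a median log2 fold change of −0.06, against 0.00 over all genes. Both shares lie near or under the background, so the count alone sets the genes apart in no direction. *TRIM22* had 12.9 and 15.7 CPM (6.23 ± 0.31, edgeR adjusted p = 2.0e-07), *TLR3* had 16.9 and 21.5 (2.58 ± 0.15, edgeR adjusted p = 6.5e-07) and *STAT2* had 87.8 and 71.1 (1.68 ± 0.11, edgeR adjusted p = 1.6e-06). The change of *TRIM22* was 7.04 without TPC1 DMSO library 1 and 5.41 without TPC1 DMSO library 3. *ISG15* reached 31.4 and 34.4 CPM (1.67 ± 0.11, edgeR adjusted p = 1.3e-06), and *DHX58* (1.19 ± 0.28), *IRF1* (0.87 ± 0.10), *HERC5* (0.75 ± 0.08) and *OASL* (0.69 ± 0.25) completed the raised genes. *IRF1*, a transcription factor that also acts without ISGF3, was the one gene called raised by the combination and not by nutlin. Under nutlin *IRF1* had passed the adjusted p (0.54, edgeR adjusted p = 0.0017) but not the fold threshold. *OASL* lost its call with library size scaling (adjusted p of 0.0511), in DESeq2 (0.051), and without any TPC1 library other than DMSO library 3 or nutlin library 1, with adjusted p from 0.0512 (nutlin library 3) to 0.158 (DMSO library 1). With the replicate number as a block *MX1* was called raised as well (0.63, edgeR adjusted p = 0.045).

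The lowered genes in TPC1 fell deeply. *IFI44L* went from 0.887 ± 0.240 CPM to 0.0861 ± 0.0317 CPM, at 4 counts in each combination library (−3.33 ± 0.44, edgeR adjusted p = 0.00014). *CMPK2* had 6 and 0 counts (−3.03 ± 0.79, edgeR adjusted p = 0.0081). It kept its call at −1.70 without TPC1 combination library 3 (edgeR adjusted p = 0.0298), and without combination library 1, which leaves the library at 0 counts, the fit gave −7.89, a value that depends on the prior count. *OAS3* went to 20.2 and 15.7 CPM (−1.73 ± 0.13, edgeR adjusted p = 2.6e-06), below both its DMSO and its nutlin libraries. *IFIT1* (chr10:91152303-91166244), which binds viral RNA that lacks a methylated cap, had 4.66 and 6.14 CPM under DMSO and 2.17 and 2.08 with the combination (−1.31 ± 0.17, edgeR adjusted p = 0.00014). *PARP9* (−1.09 ± 0.11), a member of the PARP (ADP-ribosyltransferase) family that partners *DTX3L*, and *IFI44* (−1.02 ± 0.15) fell too. These last 3 had not been called under nutlin alone.

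In K1 the combination raised 5 of 37 genes (13.5%, against 7.62% of all genes tested) and lowered 4 (10.8%, against 8.09%), with a median of 0.09, against 0.01 over all genes. *TRIM22* had 108 and 99.2 CPM (1.51 ± 0.07, edgeR adjusted p = 1.5e-09), *TLR3* 9.98 and 12.1 (1.28 ± 0.13, edgeR adjusted p = 4.0e-06) and *STAT2* 72.8 and 67.97 (0.90 ± 0.06, edgeR adjusted p = 6.3e-08), all above their DMSO libraries. *IFIT2*, a pro-apoptotic member of its family, rose by 0.63 ± 0.19 and lost its call in DESeq2 (adjusted p of 0.0798) and without K1 DMSO library 2 (0.16) or combination library 1 (0.116). *IFIH1* rose by 0.63 ± 0.11 and fell under the fold threshold without K1 DMSO library 2 (0.55).

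*OAS3* was again lowered in K1, to 48.1 and 47.1 CPM (−0.93 ± 0.06, edgeR adjusted p = 3.6e-08), and so was *CMPK2*, to 0.816 and 0.807 (−1.56 ± 0.26, edgeR adjusted p = 0.0003). *OASL* fell from 10.2 and 8.96 to 5.24 and 6.02 CPM in K1 (−0.80 ± 0.12, edgeR adjusted p = 0.00013), while it was called raised in TPC1 under the same drugs. *IFI44L* fell to 0.436 ± 0.173 CPM (−1.21 ± 0.35, edgeR adjusted p = 0.012), and lost its call in DESeq2 (adjusted p of 0.0593) and without K1 DMSO library 1 (0.0579) or combination library 1 (0.115). *TRIM22*, *TLR3* and *STAT2* were thus raised and *OAS3*, *IFI44L* and *CMPK2* lowered by the combination in both lines.

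**Figure D4:**
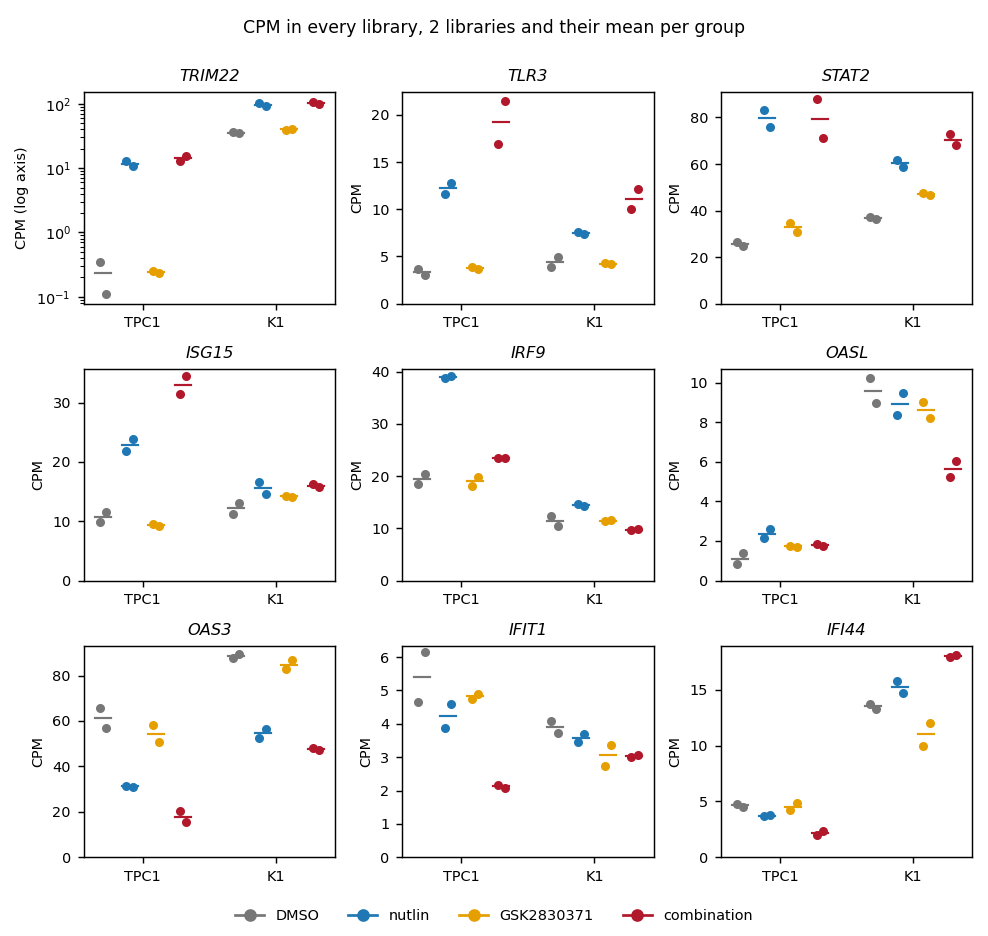
CPM in each library (points) with the mean of 2 libraries (lines) for 9 genes, by line and treatment, on linear axes from 0 except for *TRIM22*, which has a log axis. *TRIM22*, *TLR3* and *STAT2* rise with nutlin in both lines, *IRF9* is lower with the combination than with nutlin, and *OAS3*, *IFIT1* and *IFI44* are lowest in TPC1 with the combination, whereas *IFI44* in K1 is highest there (17.9 and 18.1 CPM).

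Adding GSK2830371 to nutlin moved more genes of the set down than up. In TPC1 1 of 36 genes was raised over nutlin (2.78%, against 6.46% of all genes tested) and 6 were lowered (16.7%, against 5.66%), and the median was −0.23, against 0.01 over all genes. *SP110* went from 43.6 and 45.5 CPM under nutlin to 24.3 and 25.2 (−0.83 ± 0.08, edgeR adjusted p = 0.00021), close to its DMSO libraries (26.4 and 28.8). *IRF9* went from 38.8 and 39.1 to 23.5 and 23.5 CPM (−0.71 ± 0.09, edgeR adjusted p = 0.00058). *PARP9* went from 16.3 and 17.6 to 7.65 and 9.36 CPM (−0.97 ± 0.11, edgeR adjusted p = 0.00055). In all 3 the nutlin and combination libraries did not overlap.

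*IFIT1* had 3.86 and 4.59 CPM under nutlin and 2.17 and 2.08 with the combination (−0.99 ± 0.18, edgeR adjusted p = 0.0041). *OAS3* (−0.79 ± 0.13) and *IFI44* (−0.73 ± 0.16) fell as well, *IFI44* with an adjusted p of 0.0655 without TPC1 nutlin library 3. *TLR3* was the one gene that rose further, from 11.7 and 12.8 to 16.9 and 21.5 CPM (0.68 ± 0.14, edgeR adjusted p = 0.0072), and it lost its call without TPC1 nutlin library 1 (adjusted p of 0.0599) or combination library 3 (log2 fold change 0.47). *ISG15* (0.55 ± 0.10, edgeR adjusted p = 0.0055) stayed just under the fold threshold. *OAS2* was called lowered with the block (−0.63, edgeR adjusted p = 0.041), and without TPC1 combination library 1 the number called went to 11.

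In K1 the combination differed from nutlin for 2 of 37 genes, both lowered (5.41%, against 1.52% of all genes tested in that direction and 1.16% in the other). *IRF9* went from 14.6 and 14.3 to 9.73 and 9.80 CPM (−0.61 ± 0.10, edgeR adjusted p = 0.0016) and was the one gene lowered from nutlin in both lines, though library size scaling left it under the fold threshold in K1 (−0.57). *OASL* went from 8.38 and 9.50 to 5.24 and 6.02 CPM (−0.71 ± 0.13, edgeR adjusted p = 0.0028), with an adjusted p of 0.0507 without K1 nutlin library 2. The step from nutlin to the combination was tested between the lines, and it was higher in K1 for 2 of 38 genes (5.26%, against 2.56% of all genes in each direction), *PARP9* (0.79 ± 0.15, edgeR adjusted p = 0.0033) and *IFI44* (0.93 ± 0.18, edgeR adjusted p = 0.0038). *IFI44* had 3.67 and 3.78 CPM under nutlin and 2.01 and 2.37 with the combination in TPC1, but 15.8 and 14.7 and 17.9 and 18.1 in K1. With the replicate number as a block 6 genes were called, which added *IFIH1*, *IFIT1*, *IFIT2* and *OAS2*, all higher in K1. The number was 7 with library size scaling, 6 without TPC1 combination library 1, and 4 without TPC1 DMSO library 1, TPC1 DMSO library 3 or K1 nutlin library 2.

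GSK2830371 alone moved few genes of the set past both thresholds. In TPC1 0 of 36 genes were called by edgeR or by DESeq2 (0.72% of all genes were raised and 0.681% lowered), and 9 of 36 had an unadjusted p under 0.05. The block called *IFI44L* lowered (−1.10, edgeR adjusted p = 0.031), from 0.887 ± 0.240 CPM to 0.399 ± 0.0265 CPM. In K1 1 of 37 genes was called, *DDX58* (2.7%, against 1.5% of all genes lowered and 0.736% raised), which fell from 15.04 and 14.5 to 9.84 and 9.75 CPM (−0.59 ± 0.09, edgeR adjusted p = 0.00077). *STAT2* (0.36 ± 0.06), *OAS1* (0.52 ± 0.16), *SAMD9* (−0.40 ± 0.09) and *IFI44* (−0.29 ± 0.10) passed the adjusted p in K1 but not the fold threshold. Their edgeR adjusted p ran from 0.0018 (*STAT2*) to 0.0498 (*IFI44*), and 15 of 37 genes had an unadjusted p under 0.05. For neither line is the share of all genes under that unadjusted p given here. The 9 of 36 in TPC1 and the 15 of 37 in K1 were thus not read as a response of the set. *DDX58* sits at the fold threshold, and lost its call without K1 DMSO library 1 (−0.56) or GSK2830371 library 2 (−0.58). With the trend of counts over GC content and transcript length removed, *DDX58* was at −0.41 and was not called, and the calls over all K1 genes went from 117 raised and 238 lowered to 58 and 58. Without K1 GSK2830371 library 1 the count was 2.

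The interaction asks whether the combination departs from the sum of the single drugs on the log2 scale. In TPC1 2 of 36 genes were above that sum (5.56%, against 2.82% of all genes tested), *ISG15* (0.79 ± 0.15, edgeR adjusted p = 0.017) and *IRF1* (0.65 ± 0.15, edgeR adjusted p = 0.029). Below it were 4 (11.1%, against 3.5%), *SAMD9* (−0.90 ± 0.19, edgeR adjusted p = 0.023), *PARP9* (−0.80 ± 0.16, edgeR adjusted p = 0.019), *SP110* (−0.75 ± 0.12, edgeR adjusted p = 0.0064) and *IRF9* (−0.63 ± 0.12, edgeR adjusted p = 0.017). *SAMD9*, an antiviral translation inhibitor, had 11.3 and 9.47 CPM under DMSO, 10.5 and 9.48 with nutlin, 15.4 and 13.7 with GSK2830371 and 7.95 and 6.43 with the combination. *IRF1* had 20.9 and 23.3, 31.3 and 31.9, 16.6 and 19.8 and 37.9 and 40.1 CPM in the same order, highest with the combination. *PARP9* had 19.1 and 18.8, 16.3 and 17.6, 16.8 and 18.1 and 7.65 and 9.36 CPM, lowest with the combination. The median of the 36 was −0.35, against 0.02 over all genes, and 31 of 36 were below the sum.

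The interaction calls are the least settled of all. Without either nutlin library of TPC1 1 gene was called, and without GSK2830371 library 1, GSK2830371 library 3 or combination library 3 the number was 2, 2 and 3. *SP110* kept its call throughout. *SAMD9* and *IRF1* each lost theirs without DMSO library 3, either nutlin library, GSK2830371 library 1 or combination library 3, and *SAMD9* also without GSK2830371 library 3, with adjusted p from 0.0572 to 0.109, and *IRF1* fell under the fold threshold with library size scaling (0.58). *ISG15* lost its call without either nutlin or GSK2830371 library or combination library 3 (adjusted p from 0.0526 to 0.0813). *PARP9* lost it without either nutlin or GSK2830371 library (0.0514 to 0.0921). *IRF9* lost it without either nutlin library or GSK2830371 library 3 (0.0739 to 0.0836) or without DMSO library 1 (log2 value −0.56). With the block 10 genes were called, which added *OASL*, *IFIT1*, *IFI44* and *HERC6*, all below the sum. In K1 1 of 37 was called, *IRF9* (2.7%, against 0.654% of all genes below the sum and 1.79% above), at −0.63 ± 0.14, edgeR adjusted p = 0.018. It had 12.4 and 10.4 CPM under DMSO, 14.6 and 14.3 with nutlin, 11.4 and 11.5 with GSK2830371 and 9.73 and 9.80 with the combination, and its call was lost without K1 DMSO, nutlin or combination library 2 (adjusted p from 0.0691 to 0.0952), while 3 genes were called without GSK2830371 library 2. Library size scaling (−0.58) and the removal of the GC and length trend (−0.49) ended it too. *IRF9* was the gene whose interaction was called in both lines.

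**Figure D5:**
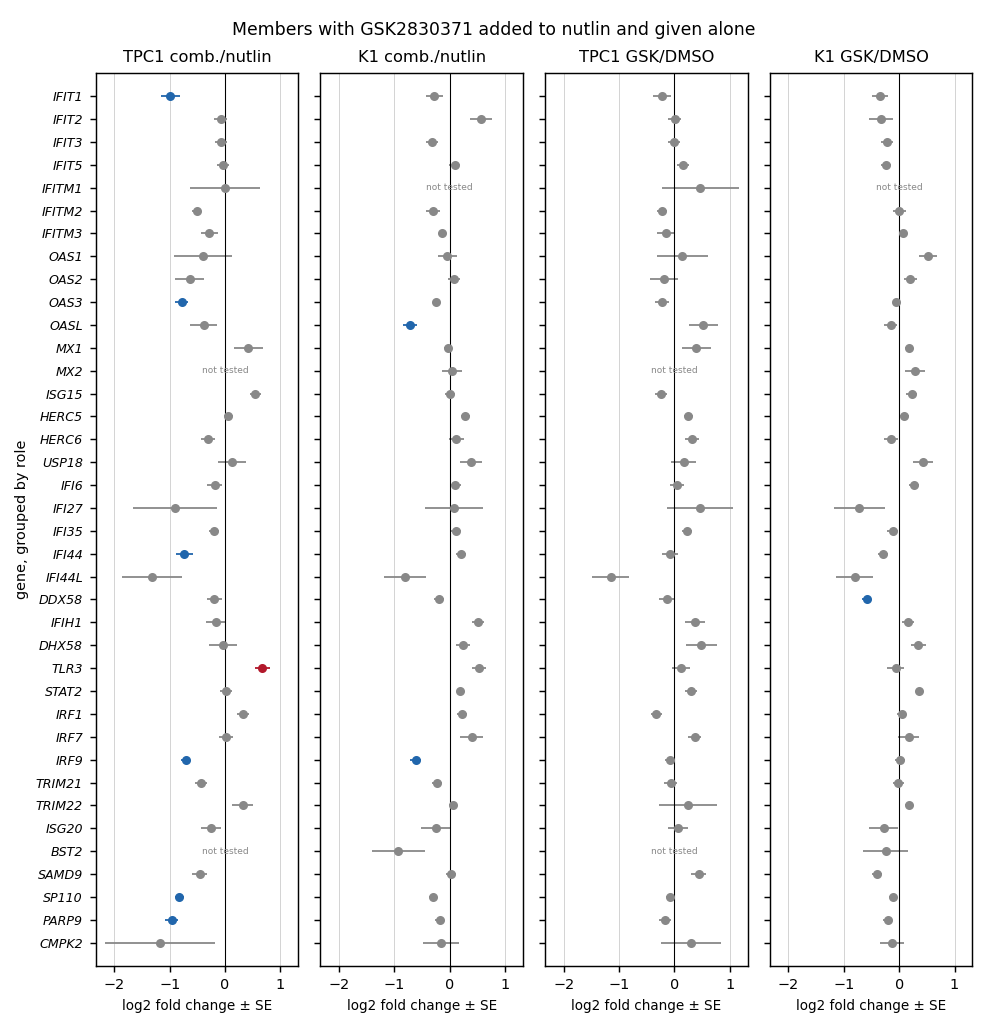
Log2 fold change ± SE (x axes, shared) for each gene tested (y axis, grouped by role), for the combination against nutlin and for GSK2830371 against DMSO in TPC1 and K1, with red for raised, blue for lowered and grey for not called. *IRF9* is blue in both panels of the combination against nutlin, 6 genes are blue and *TLR3* is red in TPC1, and *DDX58* is the coloured gene under GSK2830371 alone.

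Over the 5 comparisons of TPC1 18 of 36 genes were called in at least 1 comparison (50%, against 51.9% of all genes tested). In K1 11 of 37 were (29.7%, against 19.3%). A further 15 genes were tested in both lines and called in no comparison within a line: *IFIT3*, *IFIT5*, *IFITM2*, *IFITM3*, *OAS1*, *OAS2*, *MX1*, *HERC6*, *USP18*, *IFI6*, *IFI27*, *IFI35*, *IRF7*, *TRIM21* and *ISG20*. Neighbouring genes often parted. *IFI44L* and *IFI44*, 3650 bases apart on chromosome 1, both fell in TPC1 with the combination, while in K1 *IFI44L* fell and *IFI44* had a log2 fold change of 0.38 ± 0.09. In the IFIT cluster on chromosome 10 *IFIT1* fell and *IFIT2* (0.26 ± 0.12), *IFIT3* (0.07 ± 0.11) and *IFIT5* (−0.30 ± 0.11) were not called in TPC1 under the combination.

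The machinery above the set was examined through 34 other genes of the pathway present in the table. In TPC1 nutlin raised 5 of the 28 tested (17.9%, against 17.5% of all genes) and lowered 3 (10.7%, against 18%). In K1 2 of 27 were raised (7.41%, against 3.84%) and 1 lowered (3.7%, against 5.43%). *STAT3*, which carries signals of the interleukin 6 family, rose in both lines (1.34 ± 0.09 in TPC1 and 0.71 ± 0.06 in K1), and so did *IL10RB* (0.68 ± 0.12 and 0.60 ± 0.06), a receptor chain shared by lambda interferons and interleukin 10. *MB21D1*, which encodes the DNA sensor cGAS, fell in both (−1.36 ± 0.11 and −0.64 ± 0.20). In TPC1 the ligand-binding chain of the lambda interferon receptor, *IFNLR1*, fell (−1.61 ± 0.23, edgeR adjusted p = 0.00033), and so did *IFNGR2* (−0.96 ± 0.13), whereas the sensor *IFI16* (1.18 ± 0.10) and the adaptor STING, encoded by *TMEM173* (0.88 ± 0.09), rose.

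The receptor of type I interferon was expressed throughout. *IFNAR1* had 56.1 and 56.04 CPM in TPC1 DMSO and 56.8 and 54.4 in K1 DMSO, and it was called under no drug, nor was *IFNAR2*. The combination raised 7 of 28 and lowered 7 in TPC1 (25% each, against 22.5% of all genes raised and 21.7% lowered). *MYD88* (−1.07 ± 0.09), the adaptor of most Toll-like receptors, and *IKBKE* (−1.04 ± 0.09), a kinase of *IRF3*, were among those lowered though not called under nutlin alone. In K1 it raised 2 of 27 and lowered 2 (7.41% each, against 7.62% raised and 8.09% lowered), of which *SOCS1* (−0.69 ± 0.08), a brake on JAK kinases, was not among the genes called under nutlin. GSK2830371 alone called 0 of 28 (TPC1) and 0 of 27 (K1) in edgeR and in DESeq2, with 4 and 11 at an unadjusted p under 0.05. The share of all genes under that unadjusted p is not given here, so these counts have no background beside them.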

How the data were processed

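RNA from TPC1 and K1 cells was sequenced in 16 libraries, 2 per treatment and line. TopHat2 2.0.13 was used by the authors for alignment to GRCh37, reads of low mapping quality were removed, Picard 1.129 identified duplicates, and the deposited table holds raw read counts per gene from HTSeq 0.6.1, counted by strand. Genes that exceeded 0.1 CPM in 2 or more libraries were scaled by TMM within a line and tested with the quasi-likelihood F test of edgeR 4.0.16 (R 4.3.3), with 4 residual degrees of freedom per line and 8 for the fit of both. Calls required an adjusted p below 0.05 and more than a 1.5-fold change. The SE is the log2 fold change divided by the root of F. CPM uses the column totals. Alternatives were DESeq2 1.42.0, other scalings and filters, a replicate block, removal of the trend over GC content and transcript length (chosen after seeing the data), no fold minimum, and each library left out.

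Every gene of the set called in a comparison was named, or the 5 largest where over 10 were called in a direction, and values by library were given for the 3 largest per direction, for genes called in both lines and for the 3 highest levels. The members, the lists and this rule were chosen with earlier results of these data known. Same-numbered TPC1 libraries deviated together (r from 0.496 to 0.696 over 6 pairs of treatments), whereas those of K1 did not (r from −0.357 to 0.376). All treatments of a line share its DMSO libraries. The test was tried on simulated counts before use. Some genes of the lists are not reported here.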

Additional observations from a re-analysis of the deposited data

Results flagged for a closer look

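The response to nutlin differed between the lines for 11 genes of the set, by the test of the difference itself in the fit of all 16 libraries. On the log2 scale, as the K1 change minus the TPC1 change, *TRIM22* differed by −4.49 ± 0.29, *TLR3* by −1.18 ± 0.22, *OASL* by −1.18 ± 0.26, *STAT2* by −0.99 ± 0.13, *DHX58* by −0.93 ± 0.27 and *ISG15* by −0.80 ± 0.16. *IRF9* differed by −0.71 ± 0.14, *IRF1* by −0.66 ± 0.15, *SP110* by −0.65 ± 0.12, *IFIH1* by −0.60 ± 0.22 and *IFI44L* by 1.55 ± 0.51. The negative values belong to genes whose change with nutlin was higher in TPC1, and the positive one to *IFI44L*, which was lowered in TPC1 and not called in K1. *CDKN1A*, a p53 target outside the set, differed by −2.48 ± 0.15, so the smaller response of K1 was not confined to interferon-stimulated genes, and its part in these differences was not tested.

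The step from nutlin to the combination differed between the lines for *IFI44* (0.93 ± 0.18) and *PARP9* (0.79 ± 0.15). Both fell in TPC1 when GSK2830371 was added to nutlin, and both stayed within the fold threshold in K1, where *IFI44* was at 0.20 ± 0.09 and *PARP9* at −0.18 ± 0.08.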

How the results depend on the processing

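Of 90 calls of a gene of the set in a comparison, 63 held under each alternative run, 27 were lost under at least 1 and 0 changed direction. None of 232 medians recomputed under alternatives moved by more than the median SE of the set's genes in that comparison, and 37 of 232 counts of called genes did. With no fold minimum the counts were 12 (TPC1 combination against nutlin), 10 (K1 nutlin), 5 (K1 GSK2830371), 16 (K1 combination), 7 (K1 combination against nutlin), 2 (K1 interaction) and 5 (the step from nutlin to the combination between lines). Library size scaling gave 1 (K1 combination against nutlin), 0 (K1 interaction) and 7 (the step between lines). With no filter on low counts K1 GSK2830371 had 0 and the K1 interaction 2. With the GC and length trend removed TPC1 GSK2830371 had 1, K1 GSK2830371 0, the K1 interaction 0 and the step between lines 4. With 1 library left out the counts ran from 6 to 11 (TPC1 combination against nutlin), 1 to 9 (TPC1 interaction), 0 to 2 (K1 GSK2830371), 1 to 3 (K1 combination against nutlin), 0 to 3 (K1 interaction), 7 to 11 (nutlin response between lines) and 2 to 6 (the step between lines). The cause of these shifts was not tested.

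With the replicate block, which pairs the TPC1 libraries, TPC1 GSK2830371 had 1 call, the TPC1 interaction 10 and the step between lines 6. No call of a set gene was lost under the block in TPC1. In K1 the libraries share a number only, and the block moved none of its counts of calls by over 1.5 times.

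Over all genes, library size scaling changed the split of raised and lowered genes from 110 and 104 to 166 and 85 (TPC1 GSK2830371), from 431 and 534 to 338 and 705 (TPC1 interaction), from 184 and 242 to 228 and 196 (K1 combination against nutlin), from 284 and 104 to 404 and 77 (K1 interaction) and from 428 and 428 to 556 and 356 (the step between lines). With 2 libraries per group, a gene under about 1 CPM rests on few counts. In the set this limits *IFI44L*, *CMPK2* and *IFI27* most, and outside it *CASP1*, *TNFSF10*, *BATF2* and *LAMP3*. Changes smaller than 1.5-fold are not called at all.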

Other observations

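A further 48 interferon-stimulated genes outside the set were read in the same fits, and 45 were tested in each line. Nutlin raised 9 of 45 in TPC1 (20%, against 17.5% of all genes tested) and lowered 8 (17.8%, against 18%). *TAP1*, a subunit of the peptide transporter that feeds MHC class I, went from 23.2 and 22.7 to 219 and 212 CPM in TPC1 (3.26 ± 0.08, edgeR adjusted p = 8.0e-09) and from 32.5 and 32.2 to 81.04 and 85.6 in K1 (1.38 ± 0.06, edgeR adjusted p = 1.7e-09), with no overlap in either line. *PSMB9*, which encodes an immunoproteasome subunit and overlaps *TAP1* on the other strand, fell in TPC1 (−0.89 ± 0.24, edgeR adjusted p = 0.011). *CASP1*, the inflammasome protease, rose in TPC1 from 3 and 11 counts to 49 and 140 (3.92 ± 0.49, edgeR adjusted p = 0.00013). *PARP10* (1.52 ± 0.08) and *IFI16* (1.18 ± 0.10) rose there too. *TNFSF10*, which encodes the death ligand TRAIL, fell in TPC1 from 43 and 113 counts to 7 and 28 (−1.93 ± 0.37, edgeR adjusted p = 0.0019). *BATF2* fell from 30 and 57 counts to 10 and 18 (−1.40 ± 0.37), and *PLSCR1* (−1.06 ± 0.08) fell as well. *TRIM5* rose and *PLSCR1* fell in K1 too (0.71 ± 0.07 and −0.68 ± 0.08).

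Adding GSK2830371 to nutlin lowered 5 of these 45 genes in TPC1 (11.1%, against 5.66% of all genes tested) and raised 3 (6.67%, against 6.46%). *GBP2*, a guanylate-binding protein, went from 2.24 and 2.17 CPM with nutlin to 0.651 and 0.732 (−1.63 ± 0.19, edgeR adjusted p = 0.00051), and *GBP1* (−0.77 ± 0.18), *NLRC5* (−0.98 ± 0.14), the transactivator of MHC class I genes, and *DDX60L* (−0.61 ± 0.12) fell. *DTX3L* (−0.60 ± 0.09), the E3 ligase partner of *PARP9*, fell together with *PARP9*, with which it shares a promoter region. *LAMP3* rose from 9 and 7 counts to 86 and 75 (3.31 ± 0.50), and *TRIM25* (1.00 ± 0.16), the ligase that activates RIG-I, and *APOL6* (0.95 ± 0.10) rose too. In K1 *APOL6* was the one gene called, and it rose (0.77 ± 0.10, edgeR adjusted p = 0.00049). GSK2830371 alone lowered *DDX60* (−0.65 ± 0.13) and *DDX60L* (−0.74 ± 0.16) in K1 (4.44% of 45, against 1.5% of all genes tested) and raised 0. With the trend over GC content and transcript length removed, lowered calls over all K1 genes went from 238 to 58. The transcripts of *DDX60* and *DDX60L* have a GC content of 38.9% and 38.6%, and their values without that trend are not given here. In TPC1 GSK2830371 alone called 0 of 45 in edgeR and in DESeq2, with 13 at an unadjusted p under 0.05. For this count too the share of all genes is not given here.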
